A study of Gallus gallus with 12 samples.

Results

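Open chromatin was examined on chromosomes 30, 31, 32 and 33 of the chicken in the developing eye. Peaks of 4 lists that overlapped by 1 bp or more were merged into 127749 regions, and all 1888 regions (1.48%) whose chromosome was 30, 31, 32 or 33 were kept. Chromosome 30 held 357 of them, chromosome 31 held 275, chromosome 32 held 140 and chromosome 33 held 1116. The assay was omni-ATAC-seq, in which the transposase Tn5 cuts accessible DNA of isolated nuclei and leaves sequencing adapters there. The groups were optic fissure margin (OFM) at Hamburger-Hamilton stage HH34, dorsal retina at HH34, OFM at HH30 and dorsal retina at HH30, all from wildtype hy-line chicken embryos, with 3 libraries per group and tissue of 10 embryos pooled for each library. The OFM is the rim of the ventral gap of the optic cup that fuses as the eye forms, and dorsal retina is retinal tissue without that gap.

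Per the labels, peaks were called jointly over the libraries of a group, so there is 1 list per group and no value per library. Differences between lists therefore have no replicate spread to be set against. No test was run, and intervals given with shares are 95% Wilson intervals that cover counting error alone. For a count of 0 the upper limit given is 3 counts divided by the number of regions, not the Wilson bound. The tissues were dissected in bulk, so more cells with an open site and more opening per cell cannot be told apart. Peak lists hold no expression values, and the tissue labels were not checked against marker genes here.

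The bird karyotype joins a few large chromosomes with many small ones, the microchromosomes. Microchromosomes are known to be dense in genes and rich in G and C bases, and the smallest of them are hard to assemble because of repeats. A gene-dense chromosome usually carries many promoters per length, and promoters of active genes are among the most accessible sites of a genome.

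Microchromosomes 30 to 33 were not all the smallest in the lists. The last peak on chromosome 32 ended at position 725231 and the last on chromosome 30 at 1818521, which made them the shortest and second shortest of 34 chromosomes by this measure. Chromosome 31 reached 6144810 (place 8 from the shortest) and chromosome 33 reached 7803174 (place 13), past chromosome 16 with 2841522 and chromosome 25 with 3976365. They are called by number below. The submitters' processing notes name the build GRCg6a (galGal6). In a gene table of the later build GRCg7b, the last gene of each of the 4 chromosomes ends before the last peak, so no gene was placed beside a region. A genome of build GRCg6a was not used here, and no sequence is shown.

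Density differed widely among the 4 chromosomes. Chromosome 30 carried 196 regions per Mb up to its last peak, chromosome 32 carried 193, chromosome 33 carried 143 and chromosome 31 carried 44.8. Together they carried 114 per Mb, against 194 on chromosomes 11 to 28, 102 on chromosomes 1 to 5 and 122 on all chromosomes other than 30 to 33. Chromosomes 30, 32 and 33 alone carried 156 per Mb, above that 122. Long empty stretches lowered the figures of chromosomes 31 and 33. Of 62 windows of 100 kb on chromosome 31, 22 held no region, and of 79 windows on chromosome 33, 26 held none. Chromosomes 30 and 32 had 0 empty windows out of 19 and 8. Counted over occupied windows alone, chromosome 33 carried 211 regions per Mb and chromosome 31 carried 68.8. On this count the 4 chromosomes carried 157 together, against 126 on the other chromosomes and 199 on chromosomes 11 to 28.

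The longest empty stretch lay on chromosome 33, positions 195807 to 2163898, and spanned 1968 kb, 25.2% of the extent of that chromosome. A second one of 607 kb followed it, from 2164420 to 2771215, with a single region of 521 bp between them. On chromosome 31 the longest 3 stretches spanned 660.3 kb, 660.1 kb and 526 kb. The longest on chromosome 30 was 58.7 kb and on chromosome 32 it was 34.2 kb. Whether these stretches lack accessible sites, assembled sequence or uniquely placed reads was not tested.

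By the median gap, neighbouring regions lay close together on chromosomes 31 and 33, although chromosome 31 had few regions per occupied window. The median gap between neighbouring regions was 1247 bp on chromosomes 30 to 33, against 1672 bp on chromosomes 11 to 28 and 2771 bp on all chromosomes other than 30 to 33. It was 1050 bp on chromosome 33 and 1241.5 bp on chromosome 31. Chromosomes 30 and 32 had 1685.5 and 1881 bp, both above the value of chromosomes 11 to 28. The richest 100 kb window of chromosome 33, from 3000001 to 3100000, held 65 regions, where the median occupied window held 18. Chromosome 30 had its richest window from 1500001 to 1600000 with 37 regions, chromosome 31 from 2700001 to 2800000 with 33, and chromosome 32 from 200001 to 300000 with 27. The median occupied window held 19 regions on chromosome 30, only 4 on chromosome 31 and 18 on chromosome 32.

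Regions were wide. Their median width was 490 bp on chromosomes 30 to 33 (interquartile range 259 to 914 bp), against 435 bp on chromosomes 11 to 28 and 385 bp on all chromosomes other than 30 to 33. Chromosome 32 had a median of 603 bp, chromosome 30 of 517 bp, chromosome 33 of 489 bp and chromosome 31 of 405 bp. Outside the group, chromosome 28 had 596 bp, chromosome 25 had 522 bp and chromosome 27 had 513 bp. Regions over 2 kb made up 5.03% on chromosomes 30 to 33 and 5.52% on chromosomes 11 to 28. Single peaks of a list, before any merging, were also wide on chromosomes 30 to 33, with a median of 462 bp in the OFM list at HH34 against 377 bp elsewhere. In the dorsal list at HH34 the medians were 493 and 382 bp, in the OFM list at HH30 they were 482 and 381 bp, and in the dorsal list at HH30 they were 472 and 381 bp.

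The number of peaks on these chromosomes differed between the lists. The OFM list held 1747 peaks at HH34 and 1266 at HH30, and the dorsal list held 1812 at HH34 and 1467 at HH30. These were 1.66% (interval 1.59 to 1.74), 1.16% (1.10 to 1.23), 1.79% (1.71 to 1.87) and 1.38% (1.31 to 1.45) of their lists. The number at HH34 was thus 1.38 times that at HH30 in OFM and 1.24 times in dorsal retina, while on all chromosomes other than 30 to 33 these ratios were 0.962 and 0.952. OFM held 0.964 times as many peaks as dorsal retina at HH34 and 0.863 times at HH30, against 1.04 and 1.03 on the other chromosomes. Small chromosomes outside the group shared the rise at HH34 in part. The stage ratios in OFM and dorsal retina were 1.25 and 1.18 on chromosome 25, above chromosome 32 with 1.20 and 1.17. Chromosome 27 had 1.11 and 1.07, chromosome 16 had 1.10 in each, and chromosomes 11 to 28 had 1.04 and 1.02. OFM over dorsal retina on chromosome 25 was 0.947 at HH34 and 0.892 at HH30.

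**Figure D1:**
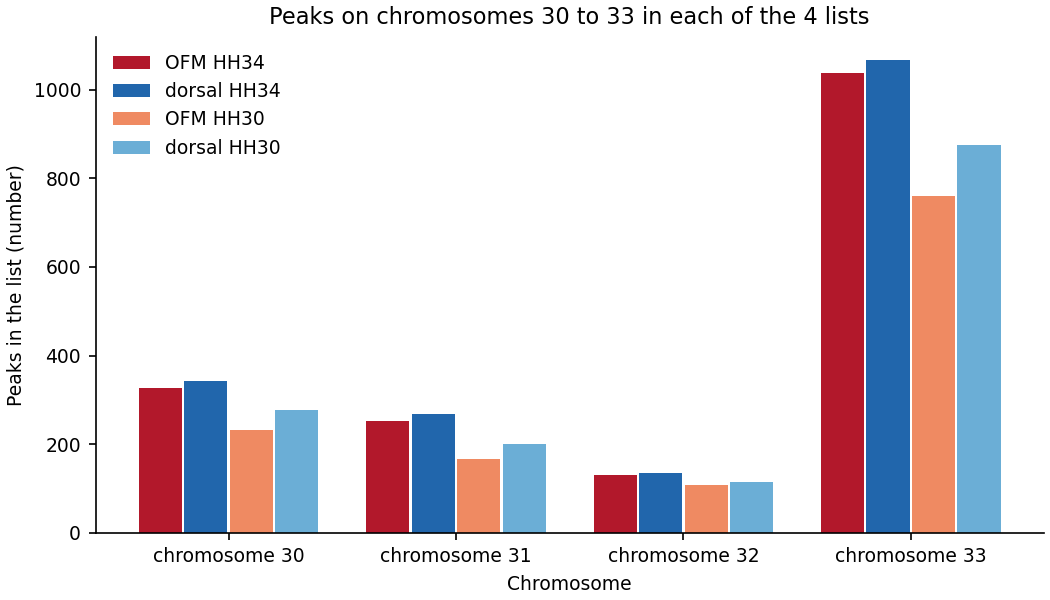
Number of peaks (vertical axis, linear from 0) on chromosomes 30, 31, 32 and 33 in each of the 4 jointly called lists; each bar is 1 list, so there is no error bar. On every one of the 4 chromosomes dorsal HH34 has the most peaks and OFM HH30 the fewest, for example 1066 and 759 on chromosome 33.

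The 4 chromosomes shared the order of the lists. On chromosome 30 the OFM list held 327 peaks at HH34 and 233 at HH30, and the dorsal list 343 and 278. Chromosome 31 had the largest stage ratio of the 4, with 253 OFM peaks at HH34 and 166 at HH30, and 268 and 200 dorsal peaks. On chromosome 32 the OFM lists held 130 and 108 and the dorsal lists 135 and 115. Chromosome 33 had 1037 and 759 OFM peaks and 1066 and 874 dorsal peaks. Dorsal HH34 was the longest and OFM HH30 the shortest of the 4 on each chromosome. The same held outside the group on chromosomes 16 (178 and 158 peaks), 25 (807 and 611) and 27 (1294 and 1148). Chromosome 28 had more peaks in OFM HH34 (1237) than in dorsal HH34 (1213).

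Peaks of chromosomes 30 to 33 were neither weak nor strong as a whole. Each peak was ranked within its list by the authors' area score and its rank was turned into a percentile, where 100 is the highest score of a list and 0 the lowest. The median percentile was 50.6 in OFM HH34, 51.8 in dorsal HH34, 53.9 in OFM HH30 and 51.4 in dorsal HH30. Chromosome 32 stood higher than the other 3 in each list, with medians of 62.2, 63.6, 69.9 and 65.9 in the same order. The median −log10 q at the summit, the authors' value, was 7.09 in OFM HH34 against 7.62 on the other chromosomes, and 7.30 against 7.55 in dorsal HH34. At HH30 it was 7.98 against 7.84 in OFM and 7.16 against 7.52 in dorsal retina.

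A peak in all 4 lists was found in 1057 of the 1888 regions (56.0%), where 60.6% of all 127749 regions had one. This share was 72.1% on chromosome 32, 57.4% on chromosome 30, 56.5% on chromosome 33 and 43.6% on chromosome 31. The members that were not in all lists were distributed unlike those of the genome. Regions with a peak in both HH34 lists and in no HH30 list numbered 313 (16.6%, interval 15.0 to 18.3), while 4.79% of all regions were of this kind. Regions in both HH30 lists alone numbered 14 (0.742%, interval 0.442 to 1.24), against 5.69% of all regions. When peaks were joined only at 50% reciprocal overlap the share in both HH30 lists alone was 3.16%. The share of all regions was not computed under this rule.

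**Figure D2:**
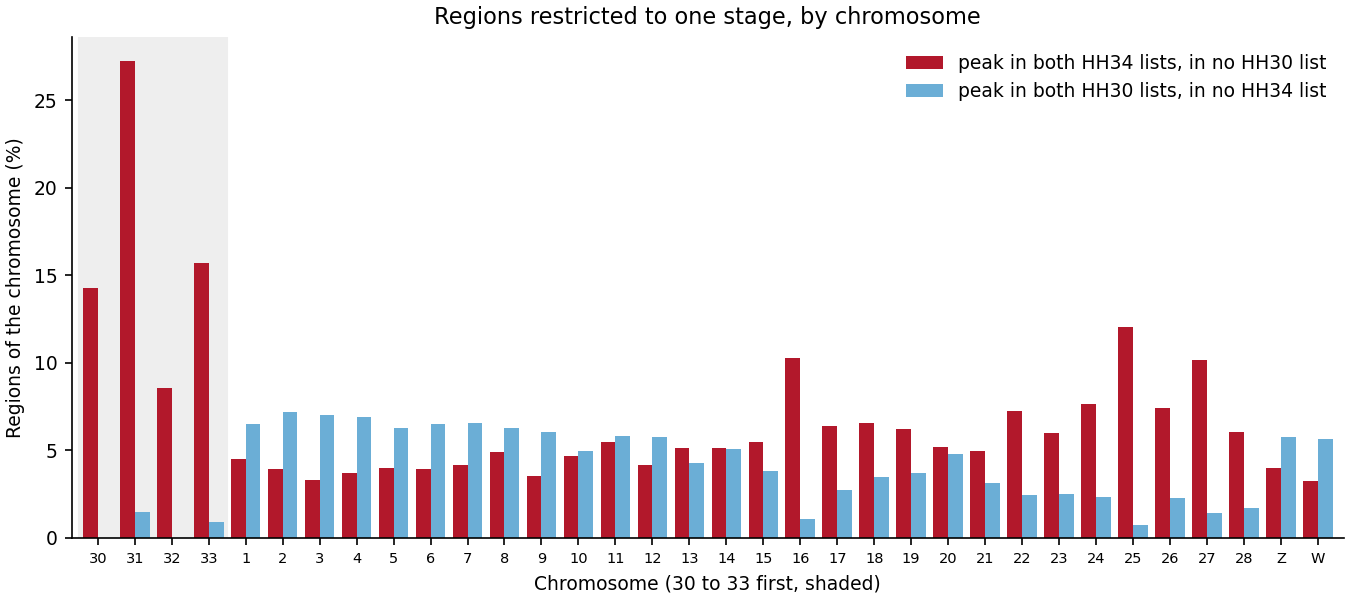
Share of the regions of each chromosome (vertical axis, %, linear from 0) with a peak in both HH34 lists and no HH30 list (red) or in both HH30 lists and no HH34 list (blue). Chromosomes 30 to 33 come first on a shaded ground; chromosome 31 reaches 27.3% for the HH34 kind, and chromosomes 30 and 32 have 0 regions of the HH30 kind.

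The share in both HH34 lists alone was 27.3% on chromosome 31 (75 of 275 regions), 15.7% on chromosome 33 (175 of 1116), 14.3% on chromosome 30 (51 of 357) and 8.57% on chromosome 32 (12 of 140). In the order of 34 chromosomes these took places 1, 2, 3 and 7. The nearest of the others were chromosome 25 with 12.1%, chromosome 16 with 10.3% and chromosome 27 with 10.2%, and chromosomes 11 to 28 as a class had 6.07%. Chromosomes 30, 31 and 33 thus lay at the end of a range that chromosome 32 and other small chromosomes shared in part.

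OFM HH30 was the list that most often lacked a peak when the others had one. Regions missing from OFM HH30 alone numbered 207 (11.0%), against 3.50% of all regions. Chromosome 33 held 119 of them (10.7% of its regions), chromosome 30 held 41 (11.5%) and chromosome 31 held 40 (14.5%). Regions missing from dorsal HH34 alone numbered 13 (0.689%), against 4.49% of all regions. A peak in dorsal HH34 alone was found in 170 regions (9.00%, against 3.85%), and a peak in OFM HH30 alone in 17 (0.900%, against 6.70%). Regions in OFM HH34 alone numbered 47 (2.49%, against 1.80%) and those in dorsal HH30 alone 14 (0.742%, against 2.57%). Both OFM lists alone held 6 regions (0.318%, against 2.22%) and both dorsal lists alone 12 (0.636%, against 1.22%). Chromosome 25 was much alike, with 9.19% missing from OFM HH30 alone and 9.55% in dorsal HH34 alone. It had 0.358% missing from dorsal HH34 alone and 1.07% in OFM HH30 alone. Chromosome 27 had 7.27% missing from OFM HH30 alone and 6.91% in dorsal HH34 alone, and chromosome 32 had 5.00% and 7.86%.

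The stage comparison asks which sites differ between HH34 and HH30 within a tissue. Of 1692 regions of chromosomes 30 to 33 with a peak in either OFM list, 571 (33.7%, interval 31.5 to 36.0) had one at HH34 and none at HH30, where 11.2% of such regions in the whole genome did. The opposite was true of 39 (2.30%, interval 1.69 to 3.14), against 14.8% in the whole genome. In dorsal retina 490 of 1818 regions (26.95%, interval 24.96 to 29.04) were at HH34 alone, against 11.0%, and 45 (2.48%, interval 1.86 to 3.30) at HH30 alone, against 14.6%. Put as a share of each list, 65.5% of OFM regions at HH34 had a counterpart at HH30 and 96.5% of OFM regions at HH30 had one at HH34. For dorsal retina these shares were 72.4% and 96.6%. When peaks were joined only at 50% reciprocal overlap, the regions at HH30 alone made up 12.0% in OFM and 13.7% in dorsal retina. Those at HH34 alone made up 36.2% and 30.1%. Shares over all regions were not computed under this rule. Whether regions at HH30 alone stay below the genome share is therefore not shown by it.

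By chromosome, the regions of OFM at HH34 alone made up 48.8% on chromosome 31, 32.8% on chromosome 33, 31.5% on chromosome 30 and 17.5% on chromosome 32. In dorsal retina the shares were 37.4%, 26.0%, 25.5% and 17.6% in the same order. On chromosomes 11 to 28 they were 14.0% in OFM and 13.4% in dorsal retina. Some other small chromosomes shared the trait. Chromosome 25 had 26.8% and 23.5% and chromosome 27 had 21.7% and 19.3%, both above chromosome 32. Chromosome 16 had 18.5% and 16.9%. The regions of chromosome 25 at HH30 alone made up 2.70% in OFM and 1.99% in dorsal retina. All regions of chromosome 32 in the OFM list at HH30, 104 in number, had a counterpart at HH34, and the 0 of 126 at HH30 alone allows a share of up to 2.38%.

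How strong these unmatched regions were can be read from their place in the list. For this, the peaks of a list were split into 4 parts of equal size, from the highest to the lowest area score. Of the OFM HH34 regions on chromosomes 30 to 33, 2 of 415 in the highest part had no OFM peak at HH30 (0.482%), against 0.106% elsewhere. In the second part 14.4% lacked one against 2.08% elsewhere, in the third 44.3% against 13.2%, and in the lowest 80.4% against 37.0%. In dorsal HH34 none of 471 regions of the highest part lacked a dorsal peak at HH30. This allows a share of up to 0.637%, against 0.0731% elsewhere. The lower parts lacked one in 4.26%, 30.0% and 78.6%, against 2.36%, 13.1% and 35.9% elsewhere. The excess at HH34 thus lay mainly in the 3 lower parts, and the strongest sites of these chromosomes were nearly all open at both stages.

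**Figure D3:**
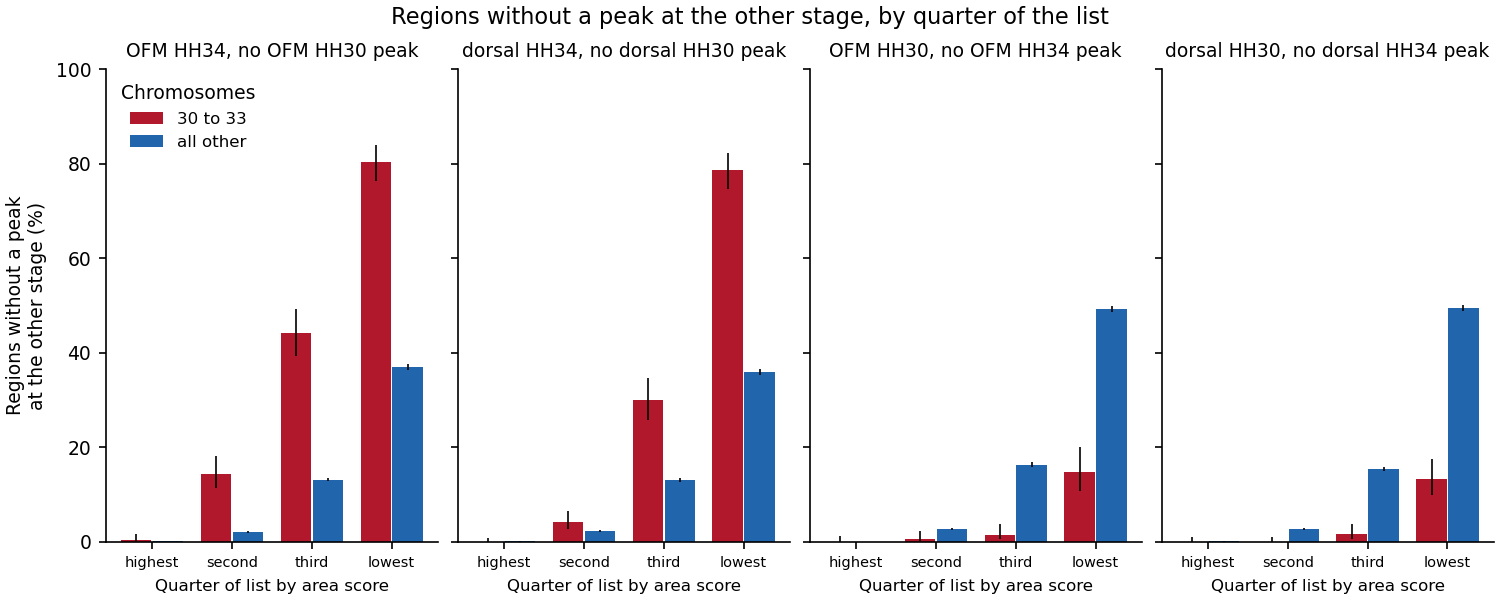
Share of regions without a peak at the other stage (vertical axis, %), by the part of the list their best peak falls in (horizontal axis, highest area score first), on chromosomes 30 to 33 (red) and on all other chromosomes (blue); bars are shares and lines are 95% Wilson intervals. Of HH34 regions in the lowest part, 80.4% in OFM and 78.6% in dorsal retina lack an HH30 peak on chromosomes 30 to 33; for HH30 regions the red bars are lower than the blue ones in the 3 lower parts.

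For HH30 regions the relation was the other way. In the lowest part of the OFM list at HH30, 14.8% of regions on chromosomes 30 to 33 had no peak at HH34, against 49.3% elsewhere. In the dorsal list at HH30 the shares were 13.2% and 49.5%. Weak sites called at HH30 on these chromosomes were thus mostly called at HH34 as well.

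The tissue comparison asks which sites differ between OFM and dorsal retina at one stage. At HH34, of 1843 regions with a peak in either list, 70 (3.80%, interval 3.02 to 4.77) were in OFM alone, against 10.3% in the whole genome, and 190 (10.3%, interval 9.00 to 11.8) in dorsal retina alone, against 7.45%. At HH30, of 1358 regions, 30 (2.21%, interval 1.55 to 3.14) were in OFM alone, against 11.3%, and 237 (17.5%, interval 15.5 to 19.6) in dorsal retina alone, against 8.41%. Chromosome 25 had much the same shares at HH34, 3.55% in OFM alone and 11.6% in dorsal retina alone, and 3.45% and 14.8% at HH30. Chromosome 16 had 2.79% and 8.38% at HH34, and 2.65% and 6.62% at HH30. As a share of each list, 95.8% of OFM regions and 89.3% of dorsal regions at HH34 were shared, and 97.3% and 82.2% at HH30. When peaks were joined only at 50% reciprocal overlap, the regions in OFM alone made up 11.3% at HH34 and 10.9% at HH30. The dorsal side had 14.5% and 23.1%. Shares over all regions were not computed under this rule. Whether regions in OFM alone stay below the genome share is therefore not shown by it. With lists cut to equal length the share in OFM alone at HH34 was 2.42%. That cut removed the weakest peaks of the OFM list at HH34 and none of the shorter dorsal list. Shares over all regions were not computed with it, so it shows no larger deficit. Without chromosome 33 the share in OFM alone at HH30 was 1.28%.

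Chromosome 31 was uneven between the stages in this comparison. At HH30 it had 0 regions in OFM alone and 43 in dorsal retina alone, of 169 in either list (25.4%), and the 0 allows a share of up to 1.78%. At HH34 it had 7 and 26 of 268. Chromosome 33 had 49 regions in OFM alone and 110 in dorsal retina alone at HH34, and 23 and 137 at HH30. Chromosome 30 had 9 and 43 at HH34, and 5 and 47 at HH30. The shares in dorsal retina alone were 10.1% and 16.9% on chromosome 33 and 12.3% and 17.9% on chromosome 30 (HH34, HH30). Chromosome 32 had 5 and 11 of 137 at HH34, and 2 and 10 of 114 at HH30. Its shares in dorsal retina alone, 8.03% and 8.77%, were close to the 7.45% and 8.41% of the whole genome.

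Regions unmatched between tissues were mostly weak. In the 2 upper parts of the OFM list at HH34, 0 of 415 and 0 of 436 regions lacked a dorsal peak. This allows shares of up to 0.723% and 0.688%. Elsewhere the shares were also low, 0.0353% and 1.35%. In dorsal HH34 the lowest part lacked an OFM peak in 37.5% of regions, against 28.9% elsewhere. In dorsal HH30 the lowest part lacked an OFM peak in 58.6%, against 32.5% elsewhere, and the third part in 18.2%, against 5.60%.

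Regions open in all 4 lists were then compared by rank, a measure that needs no gain or loss of a peak. The rank shift is the difference between lists in the percentile of the best peak in a region. Between tissues, OFM minus dorsal retina, the median shift of the 1057 shared members was −2.22 points at HH34 and −2.44 points at HH30, against 0.67 and 0.045 points on the other chromosomes. OFM ranked below dorsal retina in 873 members (82.6%) at HH34, where 40.5% of all 77405 shared regions did so. At HH30 it ranked below in 832 members (78.7%), against 49.2%. The sign was the same at both stages in most members: 751 (71.1%) ranked lower in OFM at both stages, against 32.1%, and 103 (9.74%) ranked higher in OFM at both, against 42.4%. Other small chromosomes shared this trait. OFM ranked below dorsal retina in 83.3% of shared regions on chromosome 16 and 78.3% on chromosome 25 at HH34, and in 74.2% and 80.1% at HH30.

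Over the 4 chromosomes together, large tissue shifts ran mostly toward dorsal retina and were more frequent at HH30. A shift of at least 10 points toward dorsal retina was found in 111 members (10.5%) at HH34, against 6.47% of all shared regions, and in 242 (22.9%) at HH30, against 12.2%. Toward OFM there were 33 (3.12%, against 14.2%) at HH34 and 42 (3.97%, against 9.19%) at HH30. A shift of at least 10 points toward dorsal retina at both stages was found in 46 members (4.35%), close to the 3.82% of all shared regions. One of at least 10 points toward OFM at both stages was found in 17 members (1.61%), against 5.97%. Chromosome 25 was much alike, with such shifts toward dorsal retina in 10.3% at HH34, 20.9% at HH30 and 6.11% at both. Toward OFM it had 2.56% at each stage. On chromosome 32 shifts toward dorsal retina were not more frequent at HH30 (9.90% at HH34, 7.92% at HH30). The same held on chromosome 16 (18.2% and 12.1%).

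Between stages, HH34 minus HH30, the median shift of the shared members was 3.74 points in OFM and 4.18 points in dorsal retina, against −0.65 and −1.44 points on the other chromosomes. HH34 ranked above HH30 in 865 members (81.8%) in OFM, where 41.9% of all shared regions did so, and in 917 (86.8%) in dorsal retina, against 36.8%. HH34 ranked lower in both tissues in 98 members (9.27%, against 52.3%). A shift of at least 10 points toward HH34 in both tissues was found in 218 members (20.6%, against 8.17%), and one toward HH30 in 17 (1.61%, against 11.8%). Within OFM, 338 members (31.98%, against 14.5%) ranked at least 10 points higher at HH34 and 31 (2.93%, against 15.2%) at least 10 points lower. Within dorsal retina these were 289 (27.3%, against 11.0%) and 33 (3.12%, against 20.6%). On chromosome 25, HH34 ranked above HH30 in 81.7% of shared regions in OFM and 81.3% in dorsal retina. There, 18.7% ranked at least 10 points higher at HH34 in both tissues and 1.58% at least 10 points lower. Chromosome 16 had HH34 above HH30 in 72.0% (OFM) and 86.4% (dorsal). On chromosome 32 only 9.90% ranked at least 10 points higher at HH34 in both tissues.

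**Figure D4:**
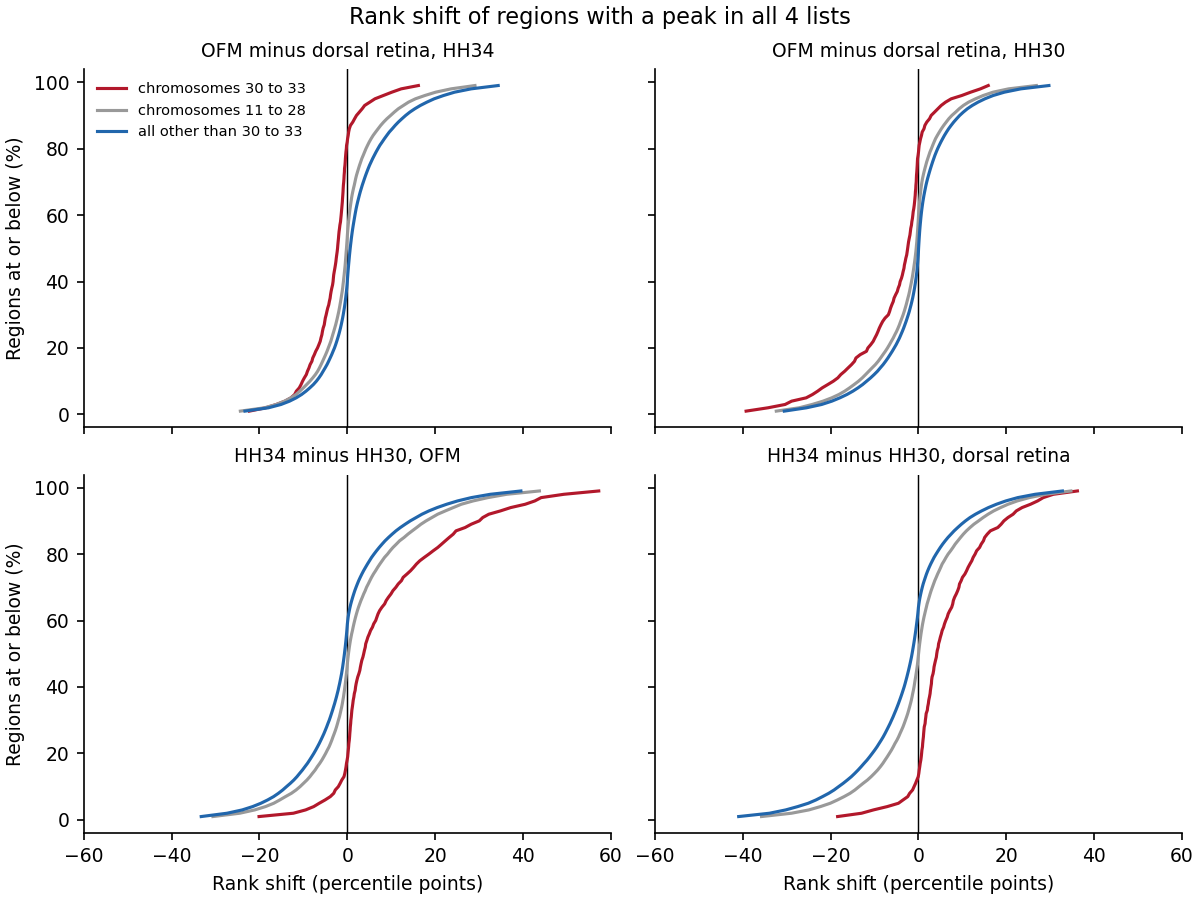
Cumulative share of regions (vertical axis, %) by rank shift (horizontal axis, percentile points) for regions in all 4 lists, on chromosomes 30 to 33 (red), 11 to 28 (grey) and all chromosomes other than 30 to 33 (blue). The red curves lie left of the blue ones for the tissue shifts (medians −2.22 and −2.44) and right of them for the stage shifts (medians 3.74 and 4.18).

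The stage shift was present at every level of accessibility. Among shared members with a mean percentile of 75 to 100 over the lists, 84.4% ranked higher at HH34 in OFM and 90.0% in dorsal retina, with medians of 1.05 and 1.76 points. Among those at 25 to 50 the shares were 77.5% and 80.2%, with medians of 12.4 and 11.1 points. Regions near the top of a list have little room to move in rank, so the size of a shift is not comparable between levels, while its sign is.

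Chromosome 31 had the largest stage shift of 34 chromosomes, with a median of 13.3 points in OFM and 7.25 points in dorsal retina. Chromosome 30 had 4.01 and 4.31 points (place 2 in each tissue) and chromosome 33 had 3.77 and 4.13 points (place 3 in each). Chromosome 32 had 0.90 and 2.25 points, which was place 11 in OFM and place 6 in dorsal retina. Of the chromosomes outside the group, chromosome 25 had 2.84 and 2.98 points and chromosome 16 had 1.93 and 3.67 points. The tissue shift of chromosome 31 was −1.74 points at HH34 and −9.18 points at HH30, and W alone was lower at HH30 with −9.83. Chromosome 30 had tissue shifts of −3.27 and −3.13 points, chromosome 33 of −2.09 and −2.24, and chromosome 32 of −2.09 and −0.73.

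**Figure D5:**
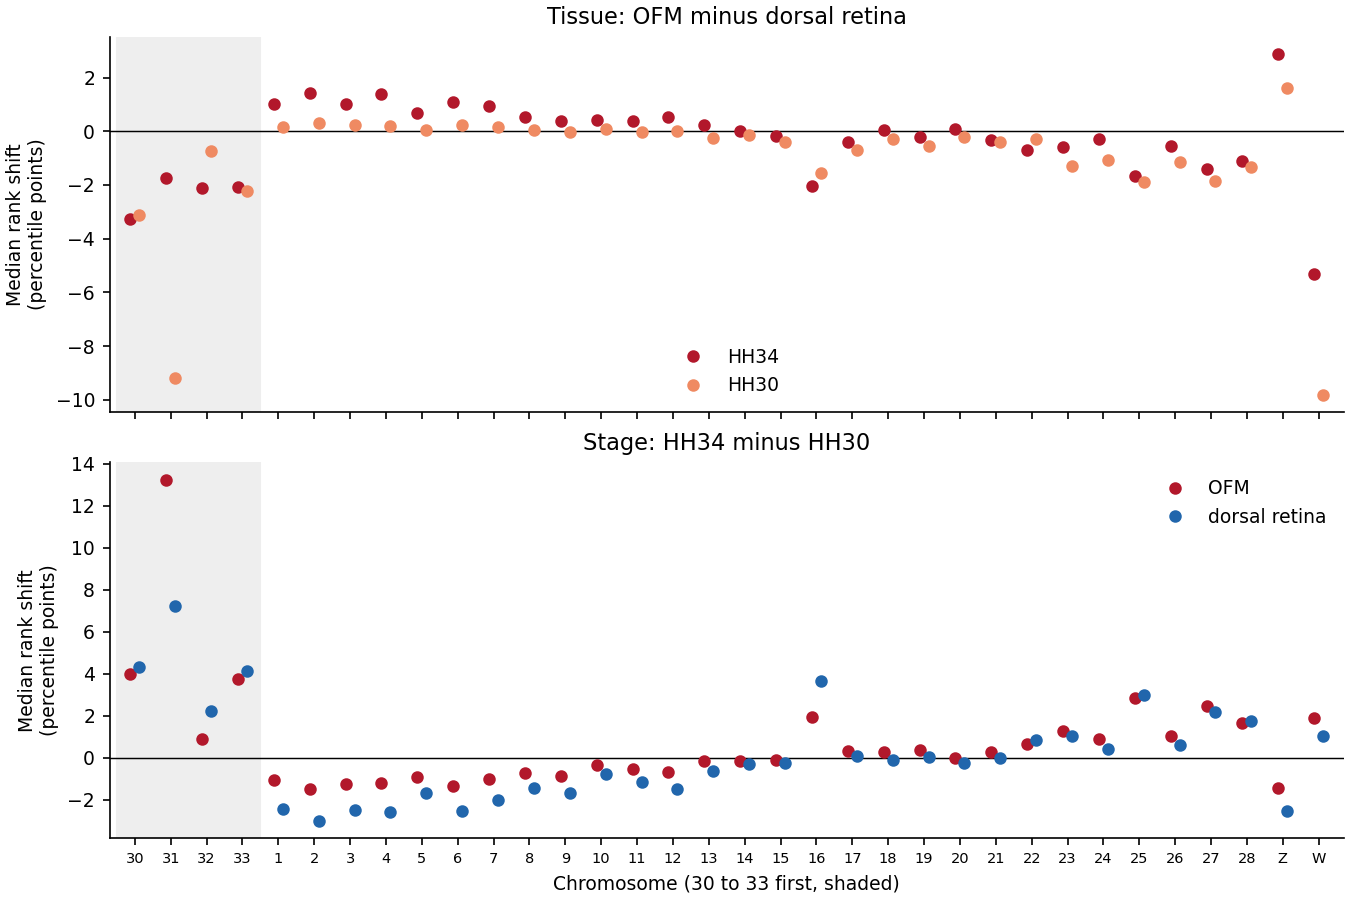
Median rank shift per chromosome (vertical axis, percentile points) for OFM minus dorsal retina (upper panel) and HH34 minus HH30 (lower panel), with chromosomes 30 to 33 first on a shaded ground; each point is 1 median over regions in all 4 lists. All 4 shaded chromosomes lie below 0 in the upper panel and above 0 in the lower one.

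Along the chromosomes the shifts were widespread among bins with enough shared members. Of 17 bins of 500 kb with at least 20 shared members, all 17 had a median stage shift above 0 in both tissues, from 0.81 to 25.04 points in OFM and from 1.89 to 10.3 points in dorsal retina. All 17 had a median tissue shift below 0 at HH34, and 16 of 17 at HH30. The share of regions in both HH34 lists alone ranged over these bins from 6.79% to 34.7%. Bins with fewer shared members, among them most bins of chromosome 31, were left out, and some went the other way. On chromosome 31 from 500001 to 1000000, with 5 shared members, the OFM stage shift was −0.22 points and the tissue shifts were above 0. On chromosome 33 from 2000001 to 2500000, 1 shared member had stage shifts of −1.11 points in OFM and −2.41 in dorsal retina.

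Shared members also differed in width. The width of a region in a list was taken as the summed width of its peaks there, which is related to the area score and so to the rank. The median was 680 bp at HH34 and 545 bp at HH30 in OFM, and 733 and 612 bp in dorsal retina. Members were wider at HH34 in 873 cases in OFM (82.6%, where 40.8% of all shared regions were wider) and in 881 cases in dorsal retina (83.3%, against 38.3%). OFM was narrower than dorsal retina in 774 members (73.2%, against 40.8%) at HH34 and in 811 (76.7%, against 45.8%) at HH30. On the other chromosomes the median was 477 bp at HH34 and 496 bp at HH30 in OFM, and 462 and 491 bp in dorsal retina. Other small chromosomes shared these differences. Shared regions were wider at HH34 in 82.2% (OFM) and 78.9% (dorsal) on chromosome 25, and in 70.5% and 87.1% on chromosome 16. OFM was narrower in 70.8% (HH34) and 75.1% (HH30) on chromosome 25, and in 63.6% and 66.7% on chromosome 16.

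The leading region of each chromosome, by the worst of its 4 ranks, was broad. On chromosome 31 the region from 4699318 to 4723110, 23793 bp wide, ranked 7 in OFM HH34, 2 in dorsal HH34, 20 in OFM HH30 and 7 in dorsal HH30, among the top 20 of each list. It was called as 1 peak of 23767 bp in dorsal HH34, while OFM HH34 had 2 peaks there, OFM HH30 had 6 and dorsal HH30 had 2. Its −log10 q at the best peak was 27.5, 35.8, 30.8 and 29.8 in the same order of lists. This region was also the widest of the 1888.

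On chromosome 30 the leading region, from 1664157 to 1669798, was likewise the widest of its chromosome with 5642 bp. It ranked 90 in OFM HH34, 69 in dorsal HH34, 445 in OFM HH30 and 69 in dorsal HH30, and its peak width stayed between 5618 and 5642 bp. On chromosome 32 the leading region, from 615841 to 618482, ranked 122, 105, 577 and 142 in that order. On chromosome 33 it lay from 7722096 to 7724799 and ranked 459, 276, 635 and 547. In each of these 4 leading regions OFM HH30 was the list with the lowest rank.

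Regions over 5 kb numbered 8 of 1888 (0.424%), against 0.200% of all regions, and 5 of them lay on chromosome 31. Other small chromosomes held such regions too, with 137 of 35985 on chromosomes 11 to 28. Among these, chromosome 16 had 4 of 185, chromosome 27 had 15 of 1389, chromosome 28 had 9 of 1303 and chromosome 25 had 2 of 838. All 8 members over 5 kb had a peak in each list. The region of chromosome 31 from 4505966 to 4518101 had 11907 bp under peaks in OFM HH34 and 5406 bp in OFM HH30, and 11914 bp in dorsal HH34 and 9626 bp in dorsal HH30. It was called as 3 peaks in OFM HH34 and 7 in OFM HH30, and as 3 in dorsal HH34 and 5 in dorsal HH30. The best of these peaks ranked 115 in OFM HH34 and 38999 in OFM HH30, and 268 in dorsal HH34 and 7479 in dorsal HH30. The widest region of chromosome 33, from 3593739 to 3599466, was also called as more peaks at HH30, 4 in OFM and 3 in dorsal retina, against 1 and 2 at HH34. It had percentiles of 98.4 in OFM HH34 and 76.8 in OFM HH30, and 97.6 in dorsal HH34 and 88.4 in dorsal HH30. The widest region of chromosome 32, from 74476 to 77392, stood at 94.8 and 90.3 in OFM and at 95.9 and 92.6 in dorsal retina.

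Among regions in both HH34 lists alone, the first by rank lay on chromosome 31 from 2692266 to 2694249. It stood at percentile 69.3 in OFM and 57.7 in dorsal retina at HH34, while the closest OFM peak at HH30 lay 1197 bp off and the closest dorsal one 754 bp off. The second lay on chromosome 33 from 3235141 to 3235986, at 58.8 and 63.5, and the third on chromosome 31 from 4499134 to 4499968, at 52.1 and 55.0. The nearest HH30 peaks of these lay 264 to 379 bp away, so each stood beside a site that was called at HH30.

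Of the 14 regions in both HH30 lists alone, the first lay on chromosome 33 from 5143102 to 5143457, at percentile 55.4 in OFM and 47.2 in dorsal retina, with HH34 peaks 571 and 538 bp away. The following ones, on chromosome 31 (2573669 to 2574156) and chromosome 33 (7287375 to 7287652), stood between 18.7 and 21.8. The 6 regions in both OFM lists alone and the 12 in both dorsal lists alone were weak. The first of the OFM ones, on chromosome 33 from 4725639 to 4725960, stood at 34.9 at HH34 and 13.4 at HH30. The first of the dorsal ones, on chromosome 33 from 7159134 to 7159563, stood at 11.5 at HH34 and 32.9 at HH30.

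Single regions with large shifts are given as a description, since they were chosen for their shift. They were ordered by the smaller of their shifts in both tissues or at both stages, so a region lower in this order can have the larger shift in 1 of them. By this order the first region toward HH34 lay on chromosome 30 from 701640 to 703070. This region stood at percentile 67.03 at HH34 and 9.97 at HH30 in OFM, and at 76.6 and 27.5 in dorsal retina. The next ones lay on chromosome 33 (3546585 to 3547101) and chromosome 30 (910862 to 911705), with shifts of 57.3 and 57.0 points in OFM and 47.3 and 45.7 points in dorsal retina. The first toward HH30 lay on chromosome 33 from 5741308 to 5742283, at 20.6 at HH34 and 66.5 at HH30 in OFM, and at 25.5 and 65.6 in dorsal retina. The region 875595 to 876159 on chromosome 31 followed with shifts of −29.7 points in OFM and −33.6 points in dorsal retina.

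Between tissues, the first region toward OFM in this order lay on chromosome 33 from 4732064 to 4733152, where OFM stood at 72.2 and dorsal retina at 46.3 at HH34, and OFM at 67.2 and dorsal retina at 45.4 at HH30. The first region held by both OFM lists alone lies before it on the chromosome, from 4725639 to 4725960. The region of chromosome 33 from 6889972 to 6890281 combined both kinds, with shifts of 26.3 and 18.3 points toward OFM at HH34 and HH30, and of −28.5 and −36.5 points between stages in OFM and dorsal retina. The first toward dorsal retina lay on chromosome 33 from 3244678 to 3245543, where OFM stood at 22.3 and dorsal retina at 48.6 at HH34, and OFM at 5.40 and dorsal retina at 27.4 at HH30. On chromosome 30 the region from 380299 to 381964 stood at 58.0 in OFM and 76.7 in dorsal retina at HH34, and at 36.4 and 70.6 at HH30.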

How the data were processed

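The 12 libraries fall into 4 groups of 3. Per the labels, 1 joint Genrich call was made for each group. The submitters' processing notes also name Trim Galore, cutadapt 1.16, Bowtie2 2.3.4.3, SAMtools 1.6, Genrich 0.6, deepTools 3.5.0 and the builds GRCg6a and galGal6, with no role or order. Reads were paired-end of 75 bp, with at least 189 M per library, per the labels. Caller settings, filters and Tn5 shifting are not given in the sources used here, and each can change peak number and width. The area score is a value deposited by the authors on an unrecorded scale and was used only to rank peaks within a list. The −log10 q of the summit was likewise taken as the authors deposited it, and so were the positions.

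Peaks of the 4 lists overlapping by at least 1 bp were merged (Python 3.11.15, pandas 2.3.3), and a region took its best peak from each list. Merging and rank shifts were tested on simulated data. Positions count from 1. Regions were named by rule: per chromosome the best-ranked region, the widest region and the richest 100 kb window, then up to 3 regions in each pair of lists alone, and the 3 largest shifts in each direction, by the smaller of those at both stages or in both tissues, of which the leading ones are printed. Members, comparisons and rules were chosen with earlier results of these data known. Sequence content, motifs and nearest genes had been planned and were not run for want of a matching genome in this work. The alternatives and their effects are in the closing section.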

Additional observations from a re-analysis of the deposited data

How the results depend on the processing

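No paired analysis was possible because the lists carry no value per replicate, and no replicate could be left out. The 8 rank-shift results kept their direction under 9 alternatives each. Some ranked peaks by −log10 q, by area score per bp, without Z and W, or among chromosomes 11 to 33. The others kept only regions with exactly 1 peak per list, or left out 1 of chromosomes 30 to 33. The median ran from −3.06 to −2.03 points (OFM minus dorsal retina) at HH34 and from −2.92 to −2.16 at HH30, and from 3.03 to 4.15 (HH34 minus HH30) in OFM and from 3.80 to 5.23 in dorsal retina. Density, below that of the other chromosomes (122 per Mb), was 156 per Mb and so above it without chromosome 31. The cause of the moves below was not tested unless the setting itself removes peaks or chromosomes. Depth of single libraries was not used, so what it limits cannot be stated. Values below are for chromosomes 30 to 33.

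With peaks joined at 50% reciprocal overlap, the share of list regions was 1.16% in OFM HH30 and 1.38% in dorsal HH30 (1.07% and 1.31% at 1 bp overlap). Unmatched shares by tissue were then 11.3% (OFM) and 14.5% (dorsal) at HH34 and 10.9% and 23.1% at HH30. By stage they were 36.2% (HH34) and 12.0% (HH30) in OFM and 30.1% and 13.7% in dorsal retina, and 3.16% were in both HH30 lists alone. With summits at most 200 bp apart, the tissue shares were 10.6% and 13.8% at HH34 and 7.97% and 20.6% at HH30. By this rule the share at HH30 alone was 9.01% in OFM and 10.3% in dorsal retina. The summit rule counts peaks rather than regions, so its shares have another unit than the region shares. Unmatched shares over all regions were not computed under either joining rule.

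With the upper 50% of each list, the list shares were 1.20% in OFM HH30 and 1.39% in dorsal HH30, tissue shares at HH30 3.23% and 14.2%, and stage shares 26.8% for OFM HH34, 22.9% for dorsal HH34 and 1.504% for dorsal HH30. Regions in both HH34 lists alone were 13.0%, density 58.4 per Mb and median width 884 bp. Where the other list could hold a peak of any rank, tissue shares of that upper 50% were 0% and 0.106% at HH34 and 0% and 0.539% at HH30, and stage shares 7.47% and 0.230% in OFM and 2.04% and 0% in dorsal retina. With lists of equal length, tissue shares at HH34 were 2.42% and 12.8%, and the dorsal HH34 stage share 29.4%. Every list but dorsal HH34, the shortest, lost its weakest peaks by that cut. Unmatched shares over all regions were not computed with the upper 50% or with equal lengths. Ranked by area score per bp, shifts above 0 made up 28.6% and 32.6% by tissue (HH34, HH30) and 68.1% and 73.0% by stage (OFM, dorsal). Ranked by −log10 q, the median tissue shift at HH34 was −2.69 points and the median dorsal stage shift 5.23 points. In the 881 regions with exactly 1 peak per list the median OFM stage shift was 3.03 points, against 3.74 in all 1057.

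Without chromosome 30, list shares were 1.34% (OFM HH34), 1.48% (dorsal HH34), 0.866% (OFM HH30) and 1.06% (dorsal HH30), and tissue shifts above 0 were 20.4% and 24.1%. Without chromosome 31 the list shares were 1.41%, 1.56%, 0.951% and 1.14% in that order, the OFM HH34 stage share 31.2% and both HH34 lists alone 14.8%. Without chromosome 32 they were 1.52%, 1.69%, 0.971% and 1.20%. Without chromosome 33 they were 0.677%, 0.760%, 0.427% and 0.534%, OFM tissue shares 2.79% at HH34 and 1.28% at HH30, tissue shifts above 0 11.0% and 14.6%, and dorsal stage shifts above 0 89.4%.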

Other observations

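The regions in both HH34 lists alone tended to follow one another. On chromosomes 30 to 33, 92 of 312 such regions (29.5%) had a next region of the same kind, where 16.6% of all regions there were of that kind. These shares were 13.3% and 6.07% on chromosomes 11 to 28, and 10.5% and 4.61% on all chromosomes other than 30 to 33. The 16.6% pools chromosomes that differ, from 8.57% on chromosome 32 to 27.3% on chromosome 31. The window of chromosome 33 from 3000001 to 3100000 held 30 regions in both HH34 lists alone among its 65 regions (46.2%). In this window OFM had a peak in 65 regions at HH34 and in 8 at HH30, and dorsal retina in 58 at HH34 and in 28 at HH30. The window of chromosome 30 from 1500001 to 1600000 held 14 among 37, with 31 regions at HH34 and 11 at HH30 in OFM, and 36 and 17 in dorsal retina.

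These regions lay at a similar median distance from sites called at HH30 as those of other small chromosomes. The nearest HH30 peak of either tissue was a median of 1105 bp away on chromosomes 30 to 33 and 1096 bp away on chromosomes 11 to 28, and it lay within 1 kb for 47.6% and 47.5% of them. On all chromosomes other than 30 to 33 the median was 1484 bp.

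Regions in all 4 lists were broken into several peaks more often in some lists. On chromosomes 30 to 33, a shared region held 2 or more peaks in 7.47% of cases in OFM HH34, in 2.65% in dorsal HH34, in 10.4% in OFM HH30 and in 9.56% in dorsal HH30. On all chromosomes other than 30 to 33 these shares lay between 4.03% and 5.15%. Chromosomes 11 to 28 had 6.18%, 5.15%, 6.53% and 6.78% in the same order of lists.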
